A study of Homo sapiens with 16 samples.

Results

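The genes described here are 9 members of the matrix metalloproteinase system, chosen by gene symbol from the 39249 genes of the count tables: MMP1, MMP2, MMP9, MMP14, MMP16 and MMP24, and the inhibitor genes TIMP1, TIMP2 and TIMP3. They were chosen with the values of these same libraries in view. Their levels and fold changes are therefore given as a description, with no test, and tests are given only for other genes. The lists of other genes were also drawn up with earlier results of these data known. Their counts and p-values are therefore not independent of that choice. All 9 passed the filter on low counts that left 21633 genes for testing.

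Matrix metalloproteinases are zinc-dependent proteases, secreted or held at the cell surface, that cut collagens, proteoglycans and other proteins of the extracellular matrix. Most are made as inactive proenzymes that are opened by other proteases, plasmin among them, and are blocked by the tissue inhibitors of metalloproteinases (TIMPs), which bind the active site. The transcription of several of them is known to depend on AP-1 (dimers of FOS and JUN proteins) and ETS factors, and in sarcomas the proteases are studied for their part in invasion.

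RNA was measured in A673, an established Ewing sarcoma cell line, and in 3 monoclonal derivatives in which MRPL45 (a protein of the mitochondrial ribosome), CYC1 (cytochrome c1 of respiratory complex III) or UQCRFS1 (the iron-sulfur subunit of complex III) was knocked out. Each line was kept for 48 h in medium with 0.1% DMSO, the solvent, or with 500 nM SP-2509, which inhibits LSD1, a demethylase of histones encoded by KDM1A. The unmodified A673 cells carry none of the knockouts, and all 8 combinations of line and treatment have 2 replicate libraries of poly(A) RNA, 16 in all. Each knockout line is 1 clone, so a difference between lines cannot be told apart from a difference between clones. The labels do not say whether replicates are separate cultures, and p-values cover the spread among the libraries sequenced, which may be technical.

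The libraries held between 24873597 and 56171036 counted reads. CYC1 stood at no more than 82.2 counts scaled to library size (CPM) in its own knockout line and at no less than 258 CPM in the other lines. UQCRFS1 reached 88.2 CPM in its own knockout line against a lowest value of 88.6 CPM in the other lines, so its transcript level barely separates the lines. KDM1A, whose product SP-2509 inhibits, was present at 167 to 379 CPM, and MRPL45 is not analysed here. All 10 Ewing sarcoma markers examined were present in every library, with CD99 between 573 and 967 CPM and NKX2-2 between 38.4 and 71.5 CPM. Of the markers of other cell types, EPCAM, CDH1, PTPRC and LYZ stayed at or under 0.399 CPM in every library. The fibroblast markers DCN, LUM and PDGFRA reached at most 7.78, 4.01 and 1.88 CPM. KRT18 (48.6 to 171 CPM) and THY1 (48.1 to 115 CPM) were present in all, and their part in the results was not tested. In RNA from whole cultures, fewer cells of a type and less RNA per cell cannot be told apart.

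MMP1 lies on chromosome 11 in a cluster of metalloproteinase genes, whose order in the RefSeq annotation is MMP7, MMP20, MMP27, MMP8, MMP10, MMP1, MMP3, MMP12 and MMP13. MMP2 is on chromosome 16, MMP9 and MMP24 on chromosome 20, MMP14 on chromosome 14, TIMP1 on chromosome X, TIMP2 on chromosome 17 and TIMP3 on chromosome 22. The sequences below end at the base before the annotated start of transcription and come from RefSeq, build GRCh38.p14, each written 5′ to 3′ on the strand of the gene. Levels of AP-1 and ETS genes are set beside those of MMP1 below. MMP1, MMP2, MMP9, MMP16 and TIMP2 had no entry among the promoters searched, so no sequence of theirs was examined. The AP-1-like motif searched was TGANTCA, with any base at N, a pattern that reads the same on both strands. The second was a pair of adjacent GGAA (GGAAGGAA or TTCCTTCC), the repeat bound by the Ewing sarcoma fusion protein in its longer form. Capitals mark a match to either motif.
MMP10, chr11:102780629-102780728, minus strand: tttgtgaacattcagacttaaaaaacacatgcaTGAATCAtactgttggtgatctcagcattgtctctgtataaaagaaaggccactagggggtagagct
MMP7, chr11:102530748-102530847, minus strand: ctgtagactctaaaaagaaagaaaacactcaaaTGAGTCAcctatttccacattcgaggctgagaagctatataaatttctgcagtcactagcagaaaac
MMP14, chr14:22836435-22836584, plus strand: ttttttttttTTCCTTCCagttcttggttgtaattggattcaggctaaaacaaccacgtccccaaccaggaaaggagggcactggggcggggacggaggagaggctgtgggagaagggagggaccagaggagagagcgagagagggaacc
TIMP1, chrX:47582336-47582435, plus strand: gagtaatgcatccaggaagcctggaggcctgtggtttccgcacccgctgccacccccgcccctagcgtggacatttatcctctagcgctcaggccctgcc
TIMP3, chr22:32801605-32801704, plus strand: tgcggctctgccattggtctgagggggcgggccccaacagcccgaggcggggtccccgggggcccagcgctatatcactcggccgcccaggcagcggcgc
MMP10 has TGAATCA and MMP7 has TGAGTCA, each beginning at position -67. MMP14 has TTCCTTCC at position -140, and the stretches shown of TIMP1 and TIMP3 hold neither motif, though TIMP1 has GGAAGGAA further upstream at position -248. In the whole windows of 300 bases, TGANTCA occurred in none of the 4 members with an entry (MMP14, MMP24, TIMP1 and TIMP3) and in 3 of 10 other metalloproteinase genes (MMP7, MMP10 and MMP20). It occurred in 7.71% of all 35116 promoters, and the adjacent GGAA pair in 3.67%. A match describes the letters and does not show a site in use.

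MMP1, the interstitial collagenase, which cuts fibrillar collagen, had the widest range of the 9 genes: its highest group mean was 326.4 times its lowest. In A673 it stood at 273 and 273 CPM with DMSO and at 3036 and 3568 CPM with SP-2509. The CYC1 knockout line had 863 and 832 CPM with DMSO and 4347 and 5054 CPM with SP-2509. In both lines the treated libraries were far above the untreated ones, and the CYC1 knockout line was above A673 under either treatment. Its values in the MRPL45 knockout line were 183 and 197 CPM with DMSO and 234 and 287 CPM with SP-2509. The UQCRFS1 knockout line had 13.1 and 15.7 CPM with DMSO, the lowest of all, and 442 and 396 CPM with SP-2509. Within each line the 2 treatments did not overlap. In ascending order of group means, the UQCRFS1 knockout with DMSO was followed by the MRPL45 knockout with DMSO, then by the MRPL45 knockout with SP-2509 and A673 with DMSO, which overlapped. The UQCRFS1 knockout with SP-2509, the CYC1 knockout with DMSO, A673 with SP-2509 and the CYC1 knockout with SP-2509 came next, each clear of its neighbours.

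The fitted log2 fold change of MMP1 with SP-2509 was 3.60 ± 0.13 (standard error, n = 2 against 2) in A673, a 12.1-fold higher level. It was 4.86 ± 0.14 in the UQCRFS1 knockout line (29.1-fold), 2.47 ± 0.12 in the CYC1 knockout line (5.55-fold) and 0.46 ± 0.12 in the MRPL45 knockout line (1.38-fold). The response of the MRPL45 knockout line differed from that of A673 by -3.14 ± 0.17 log2 units. For the CYC1 and UQCRFS1 knockouts the differences were -1.12 ± 0.16 and 1.27 ± 0.17. The 3 differences use the same A673 libraries. The UQCRFS1 knockout line had the largest ratio of the 4 lines, and its mean with SP-2509 was 419 CPM against 3302 CPM in A673. A pseudogene on the opposite strand, WTAPP1, overlaps MMP1 and reached at most 3.93 CPM.

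**Figure D1:**
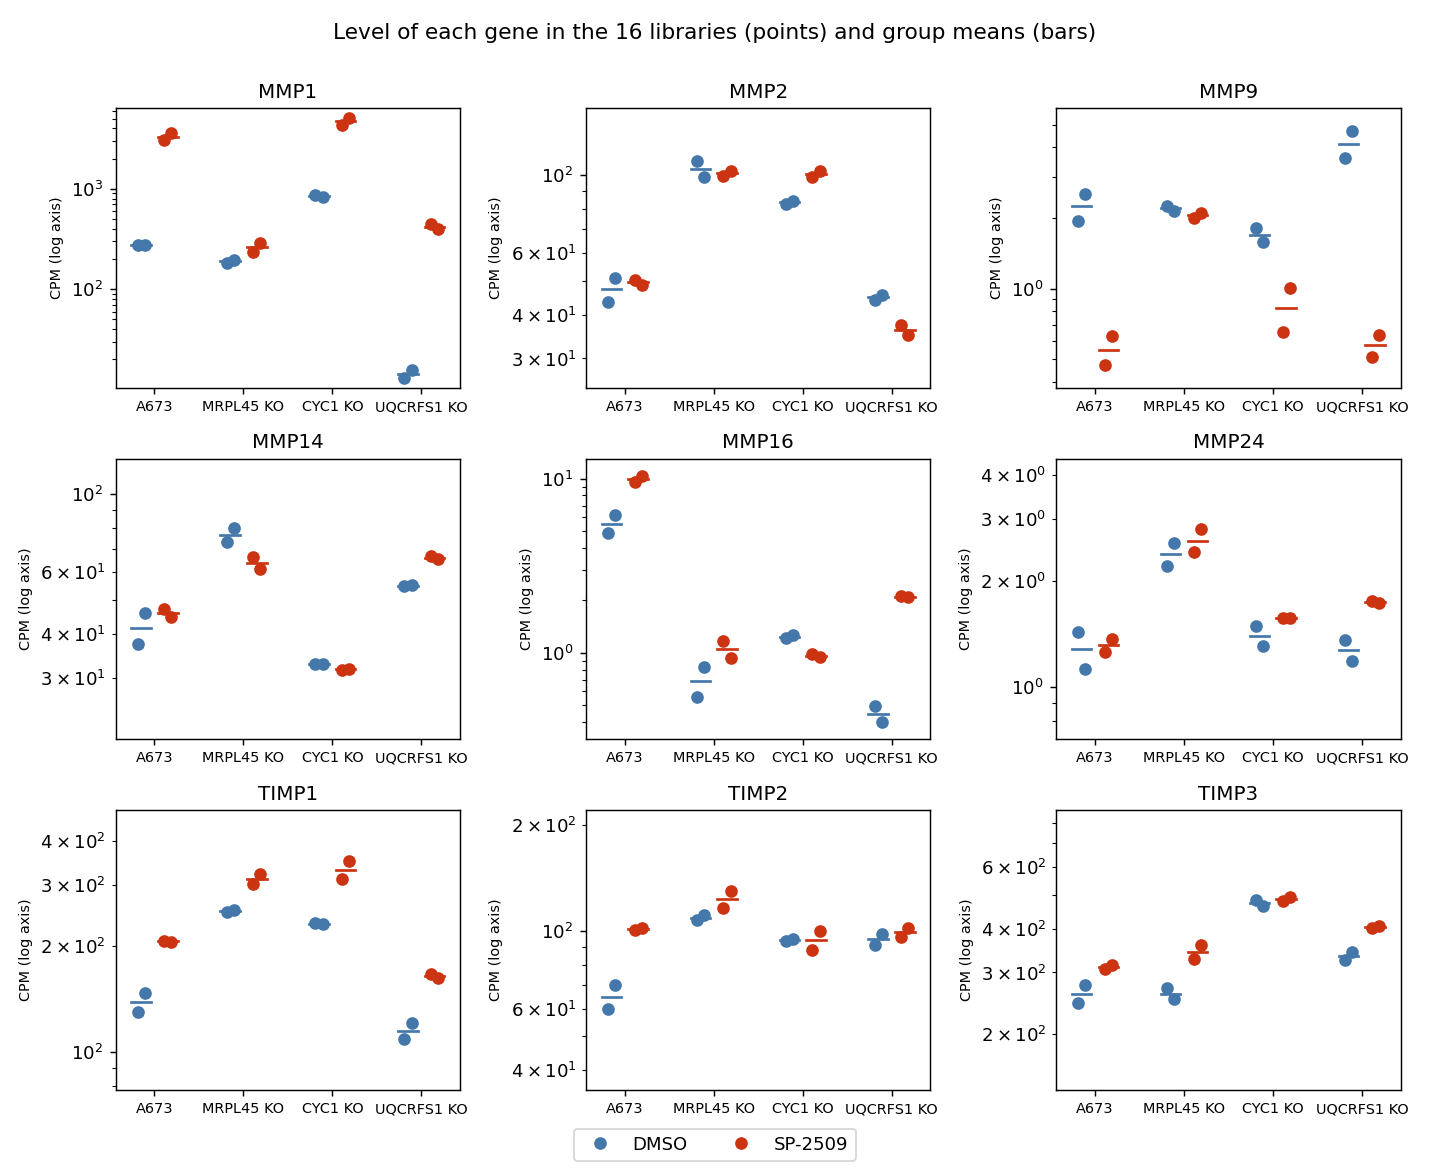
Level of each of the 9 genes in CPM (log axis, scaled per panel) for the 4 lines, with DMSO in blue and SP-2509 in red; points are libraries and short bars are means of 2. MMP1 spans from 13.1 to 5054 CPM, MMP9 is lower with SP-2509 by -1.03 to -2.85 log2 units in A673 and the knockouts of CYC1 and UQCRFS1 and by -0.10 in that of MRPL45, and MMP16 is highest in A673.

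The gelatinases MMP2 and MMP9, which cut denatured collagen and basement membrane collagen, differed from each other and from MMP1. MMP2 stood at 43.4 and 51.0 CPM in A673 with DMSO and at 50.1 and 48.7 CPM with SP-2509. The MRPL45 knockout line had 109 and 98.6 CPM with DMSO and 99.6 and 102 CPM with SP-2509. Both treatments overlapped in these lines. The CYC1 knockout line had 82.7 and 84.5 CPM with DMSO and 98.7 and 103 CPM with SP-2509. In the UQCRFS1 knockout line the values were 44.0 and 45.6 CPM with DMSO and 37.4 and 35.1 CPM with SP-2509. So with SP-2509 MMP2 was higher in the CYC1 knockout line (log2 fold change 0.27 ± 0.07) and lower in the UQCRFS1 knockout line (-0.31 ± 0.07), with no overlap of libraries in either. The larger contrast was between lines: with DMSO, MMP2 was 1.14 ± 0.07 log2 units higher in the MRPL45 knockout line than in A673 and 0.83 ± 0.07 higher in the CYC1 knockout line, while the UQCRFS1 knockout line overlapped A673.

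MMP9 was a low transcript throughout. It stood at 1.95 and 2.53 CPM in A673 with DMSO and at 0.474 and 0.629 CPM with SP-2509. The UQCRFS1 knockout line had the highest values, 3.61 and 4.69 CPM with DMSO, and 0.510 and 0.637 CPM with SP-2509. The CYC1 knockout line had 1.82 and 1.58 CPM with DMSO and 0.652 and 1.01 CPM with SP-2509. In these 3 lines every treated library was below every untreated one, by -2.01 ± 0.24, -2.85 ± 0.23 and -1.03 ± 0.23 log2 units in that order. Treated libraries were also below untreated ones in the MRPL45 knockout line, but by less: it had 2.25 and 2.15 CPM with DMSO and 2.00 and 2.10 CPM with SP-2509, a log2 fold change of -0.10 ± 0.21. MMP9 and MMP1 thus lay at opposite ends in the UQCRFS1 knockout line with DMSO, where MMP9 was at its highest and MMP1 at its lowest. The A673 libraries with SP-2509 held only 23 and 33 reads of MMP9. SLC12A5-AS1, a gene on the opposite strand that overlaps MMP9, reached at most 24 reads and 0.474 CPM. The strand setting of the counting is not known, so reads of both genes cannot be told apart where they overlap.

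Of the 3 membrane-type genes, MMP14, whose product activates pro-MMP2 at the cell surface, was the most abundant. It stood at 37.5 and 46.0 CPM in A673 with DMSO and at 47.0 and 44.7 CPM with SP-2509, which overlapped. The MRPL45 knockout line had 73.2 and 79.9 CPM with DMSO and 66.2 and 61.3 CPM with SP-2509, the UQCRFS1 knockout line 54.8 and 55.0 CPM with DMSO and 66.6 and 65.4 CPM with SP-2509. MMP14 was thus lower with SP-2509 in the MRPL45 knockout line (-0.27 ± 0.07) and higher in the UQCRFS1 knockout line (0.27 ± 0.07). The CYC1 knockout line had the lowest levels, 32.9 and 32.9 CPM with DMSO and 31.7 and 31.9 CPM with SP-2509. With DMSO, MMP14 was 0.88 ± 0.07 log2 units above A673 in the MRPL45 knockout line, 0.40 ± 0.07 higher in the UQCRFS1 knockout line and lower in the CYC1 knockout line (-0.34 ± 0.07).

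MMP16, another membrane-type metalloproteinase, on chromosome 8, separated A673 from its derivatives. A673 had 4.87 and 6.14 CPM with DMSO and 9.53 and 10.3 CPM with SP-2509, and the highest value in a knockout library was 2.10 CPM. MMP16 in the UQCRFS1 knockout line was at 0.494 and 0.401 CPM with DMSO and 2.10 and 2.09 CPM with SP-2509, and in the MRPL45 knockout line at 0.556 and 0.825 CPM and then 1.17 and 0.935 CPM. In the CYC1 knockout line MMP16 went the other way, from 1.21 and 1.26 CPM to 0.978 and 0.944 CPM. The log2 fold changes with SP-2509 were 0.85 ± 0.15 in A673, 2.22 ± 0.21 in the UQCRFS1, 0.62 ± 0.23 in the MRPL45 and -0.36 ± 0.20 in the CYC1 knockout line. With DMSO the 3 knockout lines were below A673 by -3.04 ± 0.20 (MRPL45), -2.15 ± 0.18 (CYC1) and -3.61 ± 0.20 (UQCRFS1), all against the same 2 A673 libraries.

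MMP24, a membrane-type metalloproteinase studied mostly in the nervous system, stayed between 1.13 and 2.81 CPM in all 16 libraries. Its highest values were in the MRPL45 knockout line, with 2.21 and 2.58 CPM with DMSO and 2.41 and 2.81 CPM with SP-2509, and it was 0.89 ± 0.19 log2 units above A673 there with DMSO. Values in the UQCRFS1 knockout line were 1.36 and 1.18 CPM with DMSO and 1.76 and 1.73 CPM with SP-2509, a log2 fold change of 0.45 ± 0.19. The treated libraries also lay above the untreated ones in the CYC1 knockout line (0.17 ± 0.19) and overlapped them in the other 2 lines. The strand setting of the counting is not given in the sources used here, and the gene MMP24OS on the opposite strand reached 14.9 CPM, so reads of the 2 genes cannot be told apart where they overlap.

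TIMP1, a secreted inhibitor of most of the secreted metalloproteinases, was higher with SP-2509 in each line. In A673 it stood at 130 and 147 CPM with DMSO and at 207 and 206 CPM with SP-2509. TIMP1 in the MRPL45 knockout line was at 251 and 254 CPM, then 301 and 322 CPM, and in the CYC1 knockout line at 233 and 231 CPM, then 311 and 349 CPM. The UQCRFS1 knockout line was the lowest, with 109 and 121 CPM and then 167 and 163 CPM. The 4 log2 fold changes were 0.58 ± 0.07 (A673), 0.30 ± 0.07 (MRPL45), 0.51 ± 0.07 (CYC1) and 0.52 ± 0.07 (UQCRFS1), with no overlap of libraries in any line. TIMP1 lies within SYN1, on the opposite strand, which reached at most 10 CPM.

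TIMP2, which blocks metalloproteinases and also joins MMP14 and pro-MMP2 into the complex in which the proenzyme is activated, was lowest in A673 with DMSO. It stood there at 59.8 and 70.1 CPM, and at 100 and 102 CPM with SP-2509, a log2 fold change of 0.64 ± 0.07. In the CYC1 knockout line it had 93.3 and 94.9 CPM with DMSO and 88.0 and 100 CPM with SP-2509, and in the UQCRFS1 knockout line 91.3 and 97.8 CPM and then 95.9 and 102 CPM, so the treatments overlapped in both. The MRPL45 knockout line had the highest values, 108 and 111 CPM with DMSO and 116 and 130 CPM with SP-2509 (0.17 ± 0.07). With DMSO the knockout lines were above A673 by 0.75 ± 0.07 (MRPL45), 0.54 ± 0.07 (CYC1) and 0.54 ± 0.07 (UQCRFS1). With SP-2509 these differences were 0.28 ± 0.07, -0.10 ± 0.07 and -0.03 ± 0.07, the last of which was 0.02 with upper-quartile normalization.

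TIMP3, which is held in the matrix and also inhibits ADAM and ADAMTS proteases, was the most evenly expressed of the 9 genes, with a 1.86-fold span between group means. A673 had 245 and 276 CPM with DMSO and 307 and 315 CPM with SP-2509, and the MRPL45 knockout line 270 and 252 CPM and then 329 and 359 CPM. The CYC1 knockout line had the highest values, 483 and 464 CPM with DMSO and 478 and 492 CPM with SP-2509, which overlapped. Values of 325 and 344 CPM and then 400 and 407 CPM were found in the UQCRFS1 knockout line. With SP-2509 TIMP3 was thus higher in A673 (0.25 ± 0.07), the MRPL45 (0.40 ± 0.07) and the UQCRFS1 knockout line (0.27 ± 0.06). Its neighbour on the opposite strand, SYN3, which contains it, reached at most 2.79 CPM.

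**Figure D2:**
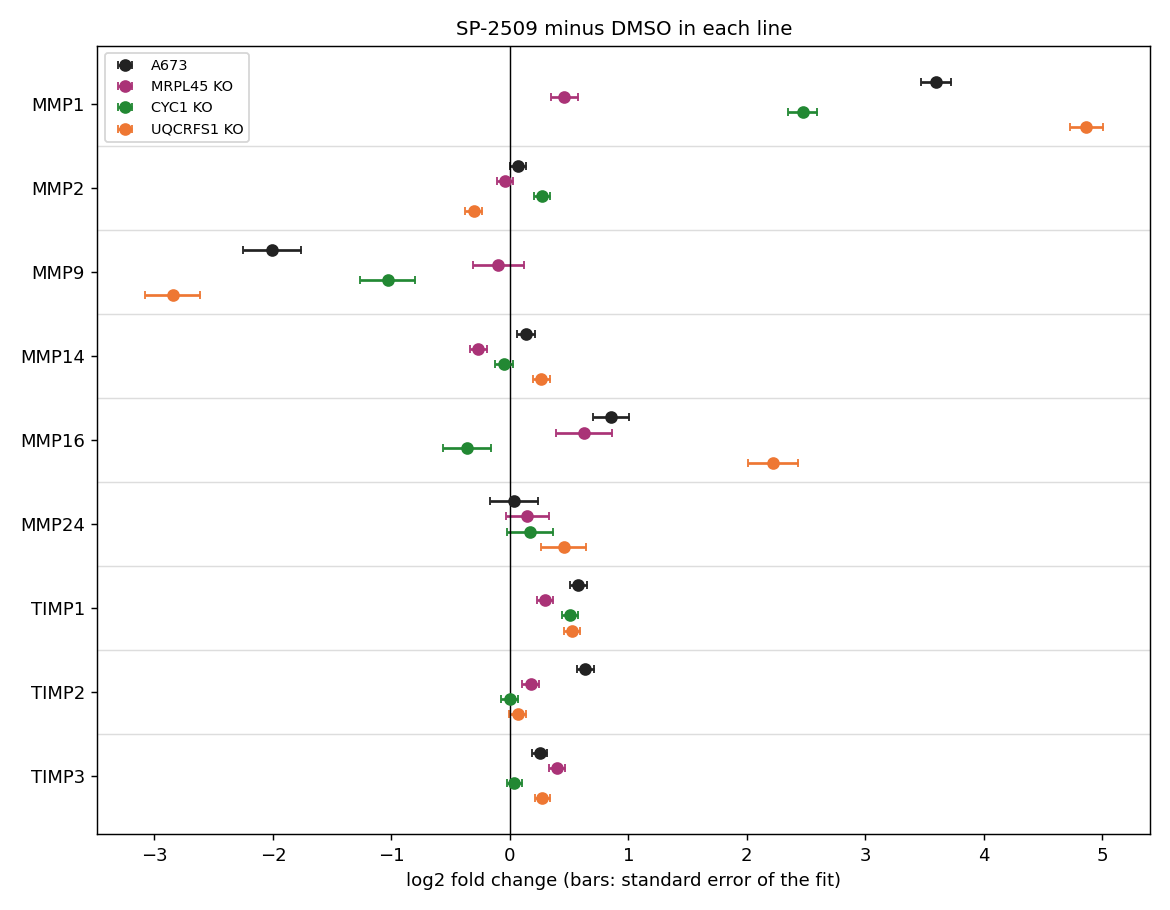
Log2 fold change of each gene with SP-2509 against DMSO in the 4 lines; points are estimates from the edgeR fit and bars their standard errors. MMP1 lies between 0.46 and 4.86, MMP9 between -2.85 and -0.10, and no TIMP gene exceeds 0.64.

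Counted by an adjusted p under 0.05 in the fit over all genes (edgeR quasi-likelihood), 6 of the 9 members passed with SP-2509 in A673, beside 58% of all tested genes. The numbers were 8 of 9 in the knockout of UQCRFS1 (54.7% of all genes), 4 of 9 in that of CYC1 (33.4%) and 4 of 9 in that of MRPL45 (18.5%). Between lines with DMSO, 7 of 9 passed in each knockout line, beside 57.8% of all genes for MRPL45, 37.6% for CYC1 and 30.8% for UQCRFS1. With SP-2509, 8 of 9 passed for MRPL45 (59.3% of all genes), 6 of 9 for CYC1 (47.6%) and 6 of 9 for UQCRFS1 (38.2%). For the difference between the response of a knockout line and that of A673, 5 of 9 passed for MRPL45 (38.7%), 4 of 9 for CYC1 (33.9%) and 4 of 9 for UQCRFS1 (10.7%). The members were chosen with these values known, so nothing is read from their counts. The median log2 fold change of the members with SP-2509 was 0.25 in A673 and 0.17, 0.04 and 0.27 in the knockouts of MRPL45, CYC1 and UQCRFS1, beside -0.03, -0.01, 0.02 and 0 over all tested genes in the same order.

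**Figure D3:**
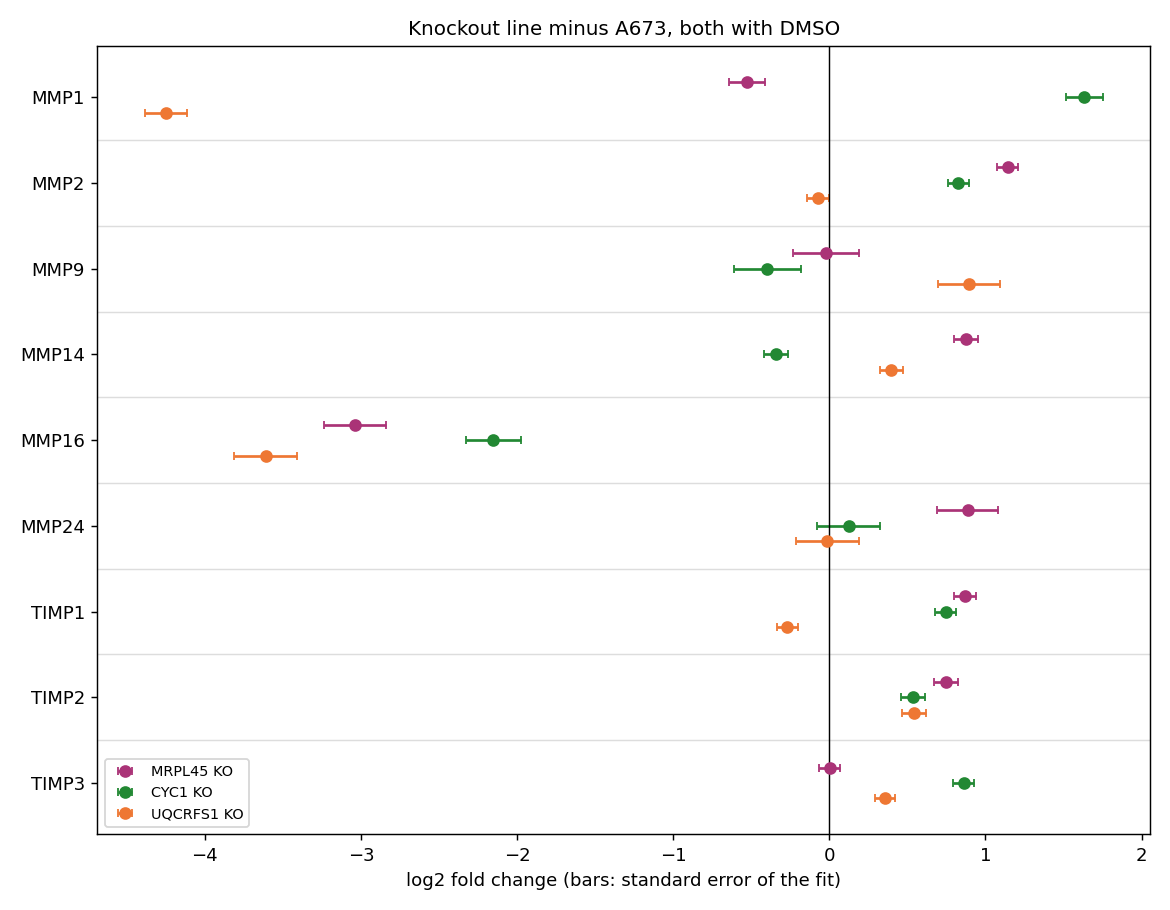
Log2 fold change of each gene in a knockout line against A673, all with DMSO; points are estimates and bars standard errors, and the 3 comparisons share the 2 A673 libraries. MMP16 lies between -3.61 and -2.15 in the 3 lines, whereas MMP1 lies at -4.25 in the UQCRFS1 and at 1.63 in the CYC1 knockout line.

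Levels of different genes were compared per length, as reads scaled to library size and transcript length (RPKM), with the longest protein-coding transcript of GENCODE 29. On this scale MMP1 was the leading metalloproteinase transcript of the 6 in most libraries. In A673 with DMSO it made up 85.7% and 83.3% of their summed RPKM, and with SP-2509 98.3% and 98.6%. The UQCRFS1 knockout line with DMSO was the exception: MMP1 made up 19.0% and 21.5%, and MMP14 at 14.7 and 14.7 RPKM and MMP2 at 11.8 and 12.2 RPKM stood above MMP1 at 6.64 and 7.98 RPKM. With SP-2509 the MMP1 share in that line was 88.7% and 87.9%. Among the inhibitors TIMP1 led, with 119 and 134 RPKM in A673 with DMSO, against 53.3 and 60.0 RPKM for TIMP3 and 16.4 and 19.2 RPKM for TIMP2.

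The ratio of the summed metalloproteinase RPKM to the summed TIMP RPKM was 0.860 and 0.779 in A673 with DMSO and 5.54 and 6.45 with SP-2509. It was 1.37 and 1.35 in the CYC1 knockout line with DMSO and 5.44 and 5.74 with SP-2509. In the MRPL45 knockout line it stayed at 0.450 and 0.471 with DMSO and 0.436 and 0.470 with SP-2509, which overlapped. For the UQCRFS1 knockout it was 0.179 and 0.176 with DMSO and 0.951 and 0.864 with SP-2509. So with these lengths the transcripts of the 6 metalloproteinases exceeded those of the 3 inhibitors in both treated A673 libraries and in all 4 CYC1 knockout libraries, and in no other. With median transcript lengths the same held except for the CYC1 knockout with DMSO, whose 2 libraries then had ratios of 0.983 and 0.967. The ratio of MMP1 to TIMP1 in A673 with DMSO averaged 1.1 with the longest transcripts and 0.629 with median transcript lengths, so the order of these 2 genes in that group depends on the length used. These are transcript levels, and neither protease activity nor secreted protein was measured.

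**Figure D4:**
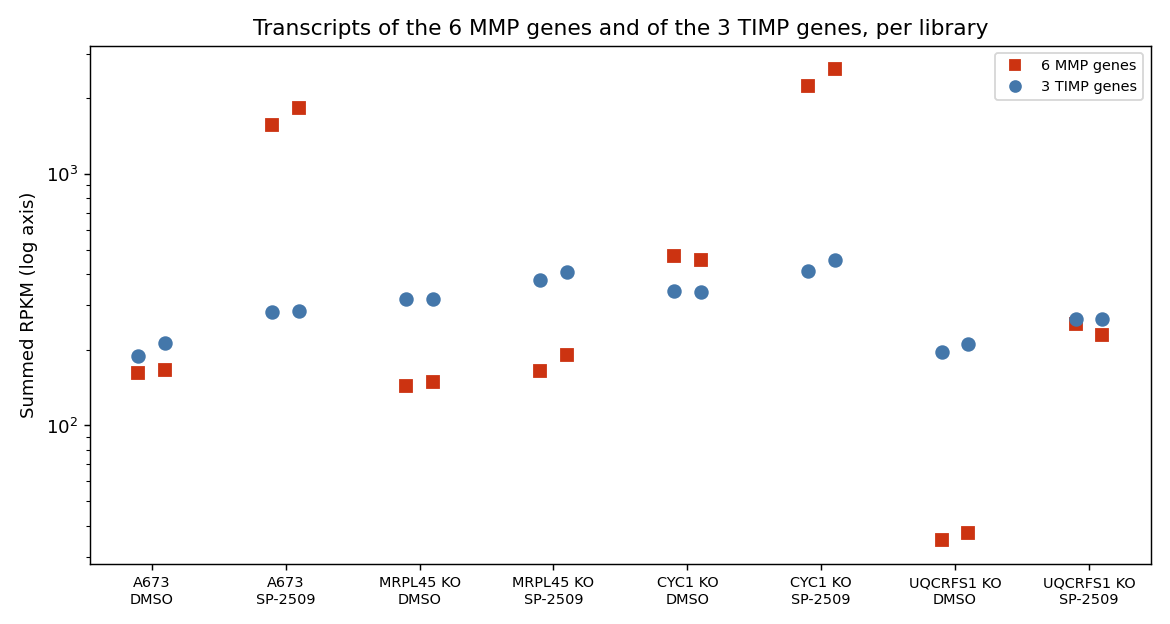
Summed RPKM (log axis) of the 6 metalloproteinase genes (red squares) and the 3 TIMP genes (blue circles) in each library, by line and treatment. The metalloproteinase sum runs from 35.0 to 2603 RPKM and the TIMP sum from 188 to 453 RPKM.

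Around these 9 genes, 114 further genes of the pathway were listed in 7 groups, of which 109 are in the tables and 94 passed the filter. With SP-2509 in A673, 50 of the 94 rose and 26 fell (edgeR quasi-likelihood, adjusted p under 0.05), with a median log2 fold change of 0.43. The counts were 48 and 24 in the knockout of UQCRFS1 (median 0.41), 34 and 24 in that of CYC1 (median 0.19), and 29 and 8 in that of MRPL45 (median 0.17). The shares of all genes that passed are those given above.

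Of the 10 other metalloproteinase genes tested, 5 rose and 3 fell in A673 (median log2 fold change 0.54, the same with MMP7 at its bound). MMP3, a stromelysin that activates pro-MMP1, was at 0.779 and 0.793 CPM in A673 with DMSO and at 17.2 and 17.5 CPM with SP-2509, and rose by 4.46 ± 0.16 log2 units (adjusted p = 2.2e-17). It also rose in the UQCRFS1 (3.06 ± 0.25, adjusted p = 2.04e-10), CYC1 (1.97 ± 0.19, adjusted p = 1.54e-08) and MRPL45 knockout lines (0.79 ± 0.11, adjusted p = 1.45e-05). Unlike MMP1, MMP3 was already high in the MRPL45 knockout line with DMSO, at 22.0 and 21.4 CPM, 4.79 ± 0.16 log2 units above A673 (adjusted p = 6.36e-18). MMP10, the other stromelysin of the cluster, whose start region is printed above, rose by 2.76 ± 0.15 in A673 (adjusted p = 1.14e-13), from 1.43 and 1.54 CPM to 9.47 and 10.6 CPM. It rose by 3.31 ± 0.16, 1.70 ± 0.15 and 0.89 ± 0.16 in the UQCRFS1, CYC1 and MRPL45 knockout lines (adjusted p = 5.51e-15, 4.4e-09 and 0.000345). The response of MMP10 was smaller than in A673 in the CYC1 and MRPL45 knockout lines (differences -1.06 ± 0.22 and -1.87 ± 0.23, adjusted p = 0.000457 and 3.61e-07) and did not differ from it past the threshold in the UQCRFS1 knockout line (0.55 ± 0.22, adjusted p = 0.124). MMP3 responded less than in A673 in the UQCRFS1 knockout line too (-1.40 ± 0.38, adjusted p = 0.0172).

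MMP7, matrilysin, was near the limit of detection. Chosen after its values were seen, it had 0 reads in both A673 libraries with DMSO and 39 with SP-2509. With the 0 set to a floor of 3 reads over the group, this is 11-fold higher. In the UQCRFS1 knockout line it had 0 and 17 reads, 5.74-fold higher with the same floor. For the CYC1 knockout, 3 reads became 19, a ratio of 5.94 with a 95% interval from 1.75 to 31.3, and in the MRPL45 knockout line 4 became 14, a ratio of 3.7 with an interval from 1.16 to 15.5. The floors replace the 0 alone and take the treated reads as exact, so these 2 folds are not lower limits. The intervals cover counting error only. MMP15 and MMP19 made up the 5 that rose in A673, by 0.62 ± 0.10 (adjusted p = 6.92e-06) and 0.65 ± 0.15 (adjusted p = 0.000835), and MMP11, MMP17 and MMP25 fell. MMP17, a membrane-anchored metalloproteinase, fell by 1.40 ± 0.18 in A673 (log2 fold change -1.40, adjusted p = 3.16e-07), and its change was -1.39 ± 0.17 in the UQCRFS1 knockout line (adjusted p = 2.09e-07). It was already lower in the MRPL45 and CYC1 knockout lines with DMSO, by -1.20 ± 0.18 and -1.04 ± 0.18 (adjusted p = 3.8e-06 and 4.15e-05).

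**Figure D5:**
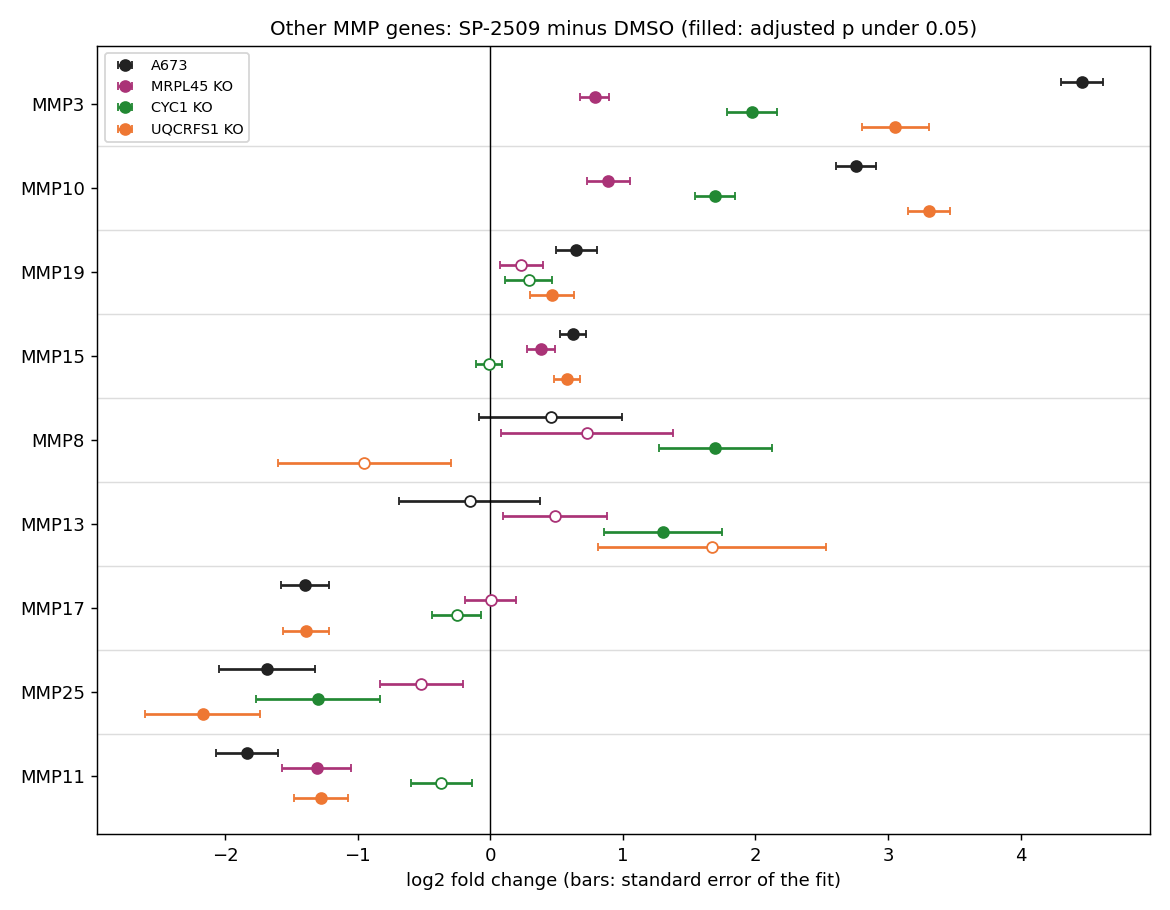
Log2 fold change with SP-2509 against DMSO of 9 other metalloproteinase genes in the 4 lines (MMP7, with no reads in some groups, is left out); points are edgeR estimates, bars standard errors, and filled points have an adjusted p under 0.05. MMP3 and MMP10 are higher in all 4 lines, MMP17 is lower in A673 and the UQCRFS1 knockout line.

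Among 8 other inhibitors and scavengers, 2 rose and 3 fell in A673 (median -0.24). TIMP4, the remaining member of the inhibitor family, fell in all 4 lines, unlike TIMP1: by -2.17 ± 0.15 in A673, -1.81 ± 0.14 in the UQCRFS1, -0.81 ± 0.14 in the CYC1 and -0.77 ± 0.13 in the MRPL45 knockout line (adjusted p = 9.28e-12, 5.51e-11, 3.84e-05 and 0.0002). It was at 5.43 and 5.58 CPM in A673 with DMSO and at 1.36 and 1.09 CPM with SP-2509. LRP1, an endocytic receptor that clears proteases, fell by -1.27 ± 0.12 in A673 (adjusted p = 8.66e-07), and RECK, a membrane-anchored inhibitor, by -0.997 ± 0.087 (adjusted p = 4.51e-10; named after its values were seen). The thrombospondins THBS1 and THBS2, matrix proteins that bind MMP2, rose by 3.38 ± 0.11 and 4.48 ± 0.20 (adjusted p = 1.94e-15 and 2.32e-15). In the CYC1 knockout line THBS1 was at 52.0 and 48.2 CPM with DMSO, 3.11 ± 0.11 above A673 (adjusted p = 3.02e-14), and fell with SP-2509 to 34.6 and 36.0 CPM (-0.51 ± 0.09, adjusted p = 0.000199). A2M, the general protease trap of plasma, was 7.92 ± 0.24 above A673 in the MRPL45 knockout line with DMSO (adjusted p = 2.04e-18), at 22.5 and 24.4 CPM against 0.0866 and 0.102 CPM.

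The plasminogen system, which yields plasmin, had 7 of 9 genes higher and 1 lower with SP-2509 in A673 (median 1.07), 6 and 2 in the UQCRFS1 knockout line, and 5 higher in each of the CYC1 and MRPL45 knockout lines, where the other 4 did not pass. PLAU, the urokinase activator, rose by 1.43 ± 0.14 in A673 (adjusted p = 5.87e-09), from a mean of 2.93 CPM to 7.87 CPM. PLGRKT, a plasminogen receptor, fell by -0.53 ± 0.11 (adjusted p = 0.00044). TFPI2, a serine protease inhibitor that also acts on matrix proteases, was lower than in A673 with DMSO in the MRPL45 and UQCRFS1 knockout lines, by -1.56 ± 0.10 and -2.03 ± 0.10 (adjusted p = 1.22e-12 and 2.21e-13).

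Among 12 activators and partners, 9 rose and 1 fell in A673 (median 0.73), 7 and 2 in the UQCRFS1, 6 and 3 in the CYC1 and 3 and 1 in the MRPL45 knockout line. CD44, a hyaluronan receptor to which MMP9 and MMP14 bind, rose by 5.38 ± 0.14 in A673 (adjusted p = 1.8e-19), from 0.433 and 0.486 CPM to 20.1 and 18.3 CPM. The MRPL45 knockout line had 99.0 and 92.9 CPM with DMSO, 7.71 ± 0.13 above A673 (adjusted p = 5.54e-23), and 153 and 162 CPM with SP-2509. CLDN1, a tight junction claudin that promotes pro-MMP2 activation, rose in A673 by 1.79 ± 0.06 (adjusted p = 1.12e-17), and CD151, a tetraspanin, fell by -0.41 ± 0.06 (adjusted p = 2.1e-06). PCSK6, a proprotein convertase, was 2.12 ± 0.14 higher in the UQCRFS1 knockout line than in A673 with DMSO (adjusted p = 2.98e-11).

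The AP-1 and ETS regulators moved mostly upward with SP-2509: 14 of 16 rose and 2 fell in A673 (median 0.91), 14 rose in the UQCRFS1 knockout line, where the other 2 did not pass (median 1.16), 9 and 2 in the CYC1 knockout line (0.24) and 11 and 1 in the MRPL45 knockout line (0.27). ETS1 rose by 4.07 ± 0.10 and FOSL2 by 3.88 ± 0.10 in A673 (adjusted p = 2.64e-20 and 1e-17), and ETV5 fell by -0.29 ± 0.06 (adjusted p = 0.000329). In the UQCRFS1 knockout line with DMSO, where MMP1 was lowest, 12 of the 16 were lower than in A673 and 1 was higher. FOSL1, the AP-1 subunit FRA1, stood there at 3.63 and 4.01 CPM against 12.1 and 11.4 CPM in A673 (-1.62 ± 0.11, adjusted p = 6.18e-11), and FOS was lower by -1.17 ± 0.12 (adjusted p = 1.26e-06). ETS1, named here after its values were seen, was at 0.277 and 0.441 CPM against 4.35 and 4.58 CPM (-3.63 ± 0.17, adjusted p = 1.43e-13). With SP-2509 in that line FOSL1 rose to 28.7 and 24.8 CPM and ETS1 to 12.3 and 11.2 CPM (2.81 ± 0.10 and 5.02 ± 0.15, adjusted p = 7.43e-17 and 1.59e-18). In the MRPL45 knockout line with DMSO, where MMP1 was lower than in A673, 12 of the 16 were higher than in A673 and 3 lower. FOSL2 stood there at 73.1 and 71.5 CPM against 6.5 and 8.29 CPM. In the CYC1 knockout line, where MMP1 was higher than in A673, 9 were higher and 2 lower, and FOSB was 2.72 ± 0.14 higher (adjusted p = 1.67e-13). Of all tested genes, 57.8% passed in either direction for MRPL45, 37.6% for CYC1 and 30.8% for UQCRFS1 in these comparisons with DMSO. Any link between these regulators and MMP1 was not tested.

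The ADAM and ADAMTS proteases, relatives that TIMP3 can inhibit, were split in A673, with 8 of 24 higher and 10 lower (median -0.25). ADAM19 rose by 1.43 ± 0.09 and ADAMTS1 by 0.49 ± 0.07 (adjusted p = 3.87e-13 and 7.42e-07), and ADAMTS10 and ADAM15 fell by -1.61 ± 0.13 and -1.03 ± 0.09 (adjusted p = 1.11e-10 and 5.69e-10). With DMSO, 17 of the 24 were higher in the MRPL45 knockout line than in A673 and 3 lower, ADAMTS1 among the lower (-1.64 ± 0.07, adjusted p = 1.47e-15). The counts were 6 and 7 in the CYC1 and 2 and 5 in the UQCRFS1 knockout line, with ADAMTS10 higher in the latter (1.07 ± 0.12, adjusted p = 1.17e-07).

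Of 15 non-collagen matrix substrates, 5 rose and 6 fell in A673 (median -0.08). TNC, tenascin C, rose by 2.18 ± 0.07 and LAMB3, a laminin chain, by 2.02 ± 0.09 (adjusted p = 1.41e-17 and 1.57e-15). BGN and HSPG2, the proteoglycans biglycan and perlecan, fell by -1.81 ± 0.07 and -1.42 ± 0.09 (adjusted p = 3.58e-17 and 2.07e-12). TNC was the most abundant of these 4 in A673, with a mean of 367 CPM with DMSO and 1666 CPM with SP-2509. Between the CYC1 knockout and A673, both with DMSO, TNC was lower in the knockout by -1.61 ± 0.07 and NID1, nidogen, higher by 2.62 ± 0.14 (adjusted p = 1.38e-14 and 3.73e-13). DCN, the collagen-binding proteoglycan decorin, was 2.56 ± 0.19 higher in the UQCRFS1 knockout line (adjusted p = 4.44e-10), at 7.78 and 6.95 CPM against 1.17 and 1.33 CPM. DCN is also 1 of the 4 fibroblast markers examined, all with reads in every library, and their sum was 71.9 and 65.7 CPM in that group against 79.0 and 76.9 CPM in A673. THY1, at 48.1 to 115 CPM over all libraries, makes up most of that sum. The sum therefore does not show how DCN, LUM and PDGFRA moved. The part of these markers in the result was not tested.

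Over all lists, 59 genes were higher and 17 lower in the MRPL45 knockout than in unmodified cells with DMSO, 30 and 26 in the CYC1 and 14 and 35 in the UQCRFS1 knockout line. With SP-2509 the counts were 49 and 23, 20 and 35, and 12 and 39. With upper-quartile normalization the MRPL45 split with SP-2509 was 57 and 16. The response to SP-2509 differed from that of A673 for 15 genes upward and 38 downward in the MRPL45 knockout line (22 and 35 with upper-quartile normalization), 13 and 34 in the CYC1 and 7 and 9 in the UQCRFS1 knockout line.

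The genes whose pattern across the 8 group means of log2 CPM was most like that of a member were ranked by Pearson correlation among about 11587 genes that reach 5 CPM in some group. The 8 means share 4 lines and 2 treatments, so the values are a description. For MMP1 they were SREK1IP1 (r = 0.985), NDUFAF2 (0.981) and ANKRD42 (0.98), and for MMP2 GATA4 (0.985), DSTN (0.982) and CDC42EP1 (0.979). For MMP9 they were ZFYVE21 (0.984), SLC25A23 (0.975) and CTNNBIP1 (0.972), for MMP14 GPALPP1 (0.976), MAN2A2 (0.969) and TRPC4 (0.968), for MMP16 URM1 (0.985), CAMSAP1 (0.975) and COQ9 (0.963), and for MMP24 PLCE1 (0.971), COMMD3 (0.964) and RNLS (0.962). The inhibitors were matched by LDLRAD3 (0.99), SLC23A2 (0.983) and SLFN5 (0.983) for TIMP1, LANCL3 (0.966), NCK2 (0.936) and ZNF91 (0.931) for TIMP2, and ZNF600 (0.927), LIMA1 (0.915) and MDFIC (0.909) for TIMP3. Only 4 of these 27 were also among the closest by Spearman correlation, so most depend on the measure of likeness. A correlation takes no account of the size of a change. SREK1IP1, NDUFAF2 and ANKRD42 had ranges of 0.52, 1.19 and 2.05 log2 units, whereas the highest group mean of MMP1 was 326.4 times its lowest.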

How the data were processed

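Poly(A) RNA of 16 libraries was analysed, and samples were grouped by line and treatment as the labels give them. The authors deposited raw counts per gene as whole numbers, per the file headers, in a table for each line, and these were joined by Ensembl identifier. The submitters' processing notes list build hg19, STAR 2.5.2b, DESeq2, Trim Galore, FastQC and MultiQC, with no roles stated. Annotation, counting program and strand setting: not given in the sources used here. Rows without a gene symbol held 2.405% to 8.588% of the counts and stayed in the totals, since they carry identifiers.

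All 16 libraries entered 1 fit with edgeR 4.0.16 in R 4.3.3, with a mean for each of 8 groups, TMM normalization, the filterByExpr filter, robust quasi-likelihood dispersions and two-sided F-tests. Residual degrees of freedom were 8, with a biological coefficient of variation of 0.0716. Adjustment was by Benjamini and Hochberg's method over all 21633 genes of a comparison, and genes with an adjusted p under 0.05 are called. The standard error of a log2 fold change is its size over the root of the F statistic. CPM uses TMM-scaled library sizes. As a check of the code, the fit was run on simulated counts. These had a single dispersion, no differences between lines and independent libraries, so the run does not bear on such features of these data. Counts of replicates differed by more than sampling noise in every group, so none was counted as a repeat. Samples with the same replicate number deviated together: over 10597 genes the correlation of their deviations from the group means was between 0.125 and 0.651 in all 28 pairs of groups, so the numbers were taken to pair the samples, and a fit with the replicate as a block was an alternative. The values reported come from the fit without the block. With the block, no member moved by more than 0.041 (log2). The count of listed genes called with SP-2509 in the MRPL45 knockout line was 42 in place of 37.

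The members and the 7 lists were chosen with earlier results of these data known. All 9 members are named. Of each list, the 2 called genes that rose most and the 2 that fell most with SP-2509 in A673 and at least 5 CPM in the higher group are named, up to 3 each way between each knockout and A673 under DMSO, and up to 2 each way for each difference of responses. A gene that the rule takes is not reported here, though counts over lists include it. Alternatives were RLE and upper-quartile normalization, no filter or a stricter one (1 CPM), DESeq2 1.42.0, only the groups compared, the replicate block and leaving out each library. Genes with no reads in a group were given a bound at 3 reads.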

Additional observations from a re-analysis of the deposited data

Results flagged for a closer look

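For the listed genes, 12 of the differences between the response of a knockout line to SP-2509 and that of A673 that passed a test of the difference itself, the interaction term of the edgeR fit, are given here, each from a gene that reached 5 CPM in some group. They are given on the log2 scale with standard error and adjusted p, and comparisons with A673 share its libraries. The group that reached 5 CPM need not be part of the comparison. DCN reached it in the UQCRFS1 knockout line with DMSO. In A673 with DMSO, DCN was well under 5 CPM, and it fell further with SP-2509. All the DCN differences given here therefore rest on low counts in A673. In the MRPL45 knockout line DCN differed by 2.67 ± 0.40 (adjusted p = 6.58e-06) and BGN by 1.49 ± 0.09 (3.77e-12), both of which fell in A673. CD44 differed by -4.66 ± 0.17 (adjusted p = 1.24e-15) and THBS2 by -3.91 ± 0.33 (8.64e-10), both of which rose in A673. In the CYC1 knockout line DCN differed by 2.40 ± 0.38 (adjusted p = 1.86e-05), TIMP4 by 1.36 ± 0.20 (1.17e-05), THBS1 by -3.89 ± 0.14 (2.08e-13) and THBS2 by -3.08 ± 0.26 (2.58e-09). In the UQCRFS1 knockout line FOSB differed by 1.60 ± 0.22 (adjusted p = 3.05e-05) and FOS by 1.24 ± 0.15 (7.36e-05). CD44 differed there by -1.71 ± 0.48 (adjusted p = 0.0241), which was lost without A673 DMSO replicate 1 (-1.61), A673 SP-2509 replicate 1 (-1.63), UQCRFS1 knockout DMSO replicate 2 (-1.10) or UQCRFS1 knockout SP-2509 replicate 2 (-1.57). DCN differed there by -1.54 ± 0.37 (adjusted p = 0.00744), which was lost without A673 SP-2509 replicate 1 (-1.42).

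Among the members, 6 pairs of responses ran in opposite directions, with every treated library above every untreated one in one line and below in the other. No test is given for these pairs, since the members were chosen with their values known. Separation of treated from untreated libraries was common: 6 of 9 members showed it in A673. It was shown by 7, 7 and 8 of 9 in the knockouts of MRPL45, CYC1 and UQCRFS1. With so few libraries per group it can also arise by chance. The share of all genes that show it is not given here, so nothing is read from the number of pairs. MMP2 was higher with SP-2509 in the CYC1 and lower in the UQCRFS1 knockout line, a difference of 0.58 log2 units. MMP14 was lower in the MRPL45 knockout line (-0.27 ± 0.07) and higher in the UQCRFS1 knockout line (0.27 ± 0.07), a difference of -0.53. The CYC1 knockout line differed from the UQCRFS1 knockout line by -0.32, but its own change in MMP14 was only -0.05 ± 0.08, within its standard error. MMP16 was lower in the CYC1 knockout line and higher in A673 and in the MRPL45 and UQCRFS1 knockout lines. Its differences were 1.21 (A673 minus CYC1), 0.99 (MRPL45 minus CYC1) and -2.58 (CYC1 minus UQCRFS1).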

How the results depend on the processing

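The counts of listed genes called stayed within 1.5 times of the reported ones in all 13 comparisons under every alternative run. Leaving out each library in turn gave 69 to 77 with SP-2509 in A673, 26 to 38 in the MRPL45, 47 to 58 in the CYC1 and 68 to 72 in the UQCRFS1 knockout line. With the replicate block the count in A673 was 77 in place of 76, and the block changed none of 122 calls of named genes. Relative to TMM, upper-quartile normalization moved the median log2 fold change of all genes by -0.18 with SP-2509 in A673, -0.14 in the UQCRFS1 knockout line and 0.23 for the MRPL45 knockout line against A673 with SP-2509. In that last comparison CD151 turned to 0.055 (log2); the cause was not tested. In A673, the log2 fold changes of MMP2 and MMP14 with SP-2509 turned from 0.07 and 0.14 to -0.11 and -0.04, and TIMP2 in the UQCRFS1 knockout line from 0.07 to -0.07. The stricter filter turned them too, to -0.071, -0.001 and -0.033. Without A673 DMSO replicate 1, MMP2 and MMP14 in A673 were at -0.091 and -0.05. Other small member changes also turned under some alternatives, among them MMP24 in A673, from 0.035 to -0.148 with upper-quartile normalization. No member moved by more than 0.37 (log2), the largest move coming from leaving out a library. Of 117 member fold changes, 40 moved by at least their standard error with upper-quartile normalization and 25 with the stricter filter. Of the 1872 member fold changes with a library left out, 109 moved by that much. With median transcript lengths the ratio of MMP1 to TIMP1 in A673 was 0.629, before the start alone TGANTCA occurred in 6.57% of promoters, and by Spearman correlation 4 of the 27 closest genes were shared. The call of CD151 with SP-2509 in the MRPL45 knockout line (-0.19) was lost with RLE, DESeq2, no filter and only the groups compared. MMP7, with 0 reads in some groups, is limited by depth.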
